A study of Mus musculus with 15 samples.

Results

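The comparison described here set RNA recovered with an antibody against Arid5a beside RNA recovered with a control antibody, both from unstimulated ST2 cells. Its members are the 8 libraries labelled as medium, 4 precipitated with the Arid5a antibody and 4 with mouse IgG2b, out of 15 libraries in the series. The other 7 came from cells treated with IL-17. They shared the fit, so the gene filter, the scaling and the estimated spread behind the medium calls drew on them too. Their values are set beside the medium ones.

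The method was RNA immunoprecipitation followed by sequencing (RIP-seq), which counts the RNAs that come down with an antibody. ST2 is an established mouse stromal cell line from bone marrow. Medium cells received no IL-17, treated cells received IL-17 at 200 ng/mL for 3 h, and both were fixed with 1% formaldehyde before lysis. No genotype was changed and the Arid5a was the cells' own, as far as the labels say. The labels do not say whether the numbered replicates were separate cultures, so every p-value measures the spread between these libraries, which may be technical. A library of unprecipitated RNA was not used here, so a level in a RIP cannot be split into abundance in the cell and recovery by the antibody.

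Arid5a belongs to the family of proteins with an AT-rich interaction domain, and it is known as an RNA-binding protein that stabilises transcripts of inflammation by binding stem-loops, Il6 mRNA being the best studied. It is induced by inflammatory signals such as IL-17, so the medium libraries hold the comparison at rest. In a RIP, RNA bound by the target protein should be enriched with the specific antibody over the control IgG, and both carry over RNA that is not specifically bound.

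The 8 libraries held between 939139 and 4580018 expected counts, and the shallowest was IgG replicate 2. It listed 15326 genes with at least 1 count, against 20857 to 22589 in the other 7. Pearson's r of log2 CPM (counts scaled to a common library size) between library pairs was 0.807 to 0.826 for pairs with IgG replicate 2. Among the other 7 libraries it was 0.905 to 0.949 within an antibody and 0.897 to 0.937 between antibodies, which overlap. Stromal markers such as Col1a1 and Sparc, 20 genes in all, summed to 33726 to 36988 CPM in the IgG libraries and 27513 to 33756 CPM in the Arid5a libraries. The 22 haematopoietic markers summed to 34.0 to 47.7 CPM and 37.2 to 53.3 CPM, with 3 of them at 0 in all 8 libraries. The 20 epithelial and endothelial markers summed to 79.8 to 180 CPM and 112 to 138 CPM, and none of them was at 0 in every library. The labelled stromal identity was borne out by these markers. Here and below, CPM are scaled by TMM (trimmed mean of M-values) factors, and values are listed from replicate 1 to replicate 4.

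Few transcripts were called different between the antibodies in edgeR. In medium, 10 transcripts were higher with the Arid5a antibody and 102 were lower at an adjusted p below 0.05, among 17835 tested by edgeR's quasi-likelihood test with Benjamini-Hochberg adjustment. That is 0.0561% higher and 0.572% lower. The higher calls were 2 small guide RNAs, the ribosome biogenesis factor Nsa2, the histone gene H4c4 and 6 transcripts of low or moderate level. The lower calls were mostly abundant messenger RNAs with changes of less than a log2 unit.

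**Figure D1:**
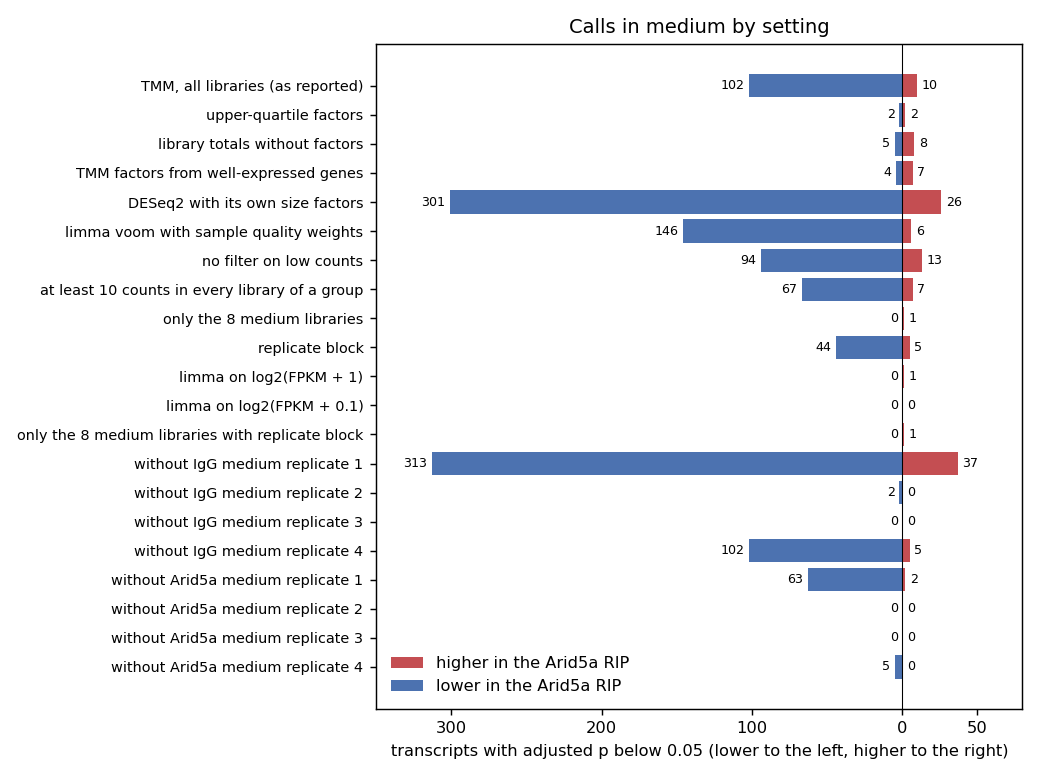
Number of transcripts called lower (blue, to the left of 0) and higher (red, to the right) in the Arid5a RIP in medium, for the setting reported and each alternative. The 102 lower calls became 2 with upper-quartile factors and 301 with DESeq2, and both counts were 0 without IgG replicate 3.

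These counts rested on single libraries and on the scaling. Without IgG replicate 1 there were 37 higher and 313 lower calls, and without IgG replicate 4 there were 5 and 102. Leaving out IgG replicate 2 gave 0 and 2 calls, and leaving out IgG replicate 3 gave 0 and 0, with 1917 and 1944 transcripts at an unadjusted p below 0.05 in edgeR. Without Arid5a replicates 1, 2, 3 and 4 in turn there were 2, 0, 0 and 0 higher calls and 63, 0, 0 and 5 lower calls, with 1964, 1562, 1504 and 1997 transcripts at an unadjusted p below 0.05. The TMM factors left the median log2 fold of all tested genes at 0.04 and that of the 5394 well-expressed genes (average log2 CPM of at least 5) at -0.19. With TMM factors taken from the well-expressed genes the calls were 7 higher (0.0392%) and 4 lower (0.0224%), so most calls were then higher. With library totals as the only scaling they were 8 (0.0449%) and 5 (0.028%), with upper-quartile factors 2 and 2 (0.0112% each), and with DESeq2 26 (0.146%) and 301 (1.69%).

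Only Nsa2 and H4c4 among the higher calls, and Tacc3 and Esd among the lower, were called under all 5 scalings tried (TMM, upper quartile, library totals, TMM from well-expressed genes and DESeq2's size factors). With only the 8 medium libraries in the fit, 1 transcript was called (0.00644%), and it was higher: Scarna13. The same transcript was the only one called on log2(FPKM + 1) with limma (0.00561%), where FPKM are counts scaled to gene length and library size.

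Scarna13 is a small Cajal body RNA of the H/ACA class, a guide RNA that directs pseudouridylation of spliceosomal RNA, and such RNAs end shortly after an ACA box. Its gene lies at chr12:105031075-105031349 (GRCm38.p6, the mm10 assembly), inside the noncoding host gene Snhg10, and its model is 275 bases long. A miRNA hairpin, Mir3069, overlaps the low-coordinate end of that model, and its RefSeq sequence is the stretch of Scarna13 for which letters can be shown. It is at chr12:105031077-105031141 on the minus strand, the strand of Snhg10; the gene table gives no strand for Scarna13. The hairpin is printed 5′ to 3′ with its last ACA in capitals.
Mir3069 hairpin: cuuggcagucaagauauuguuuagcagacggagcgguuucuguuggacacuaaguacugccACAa
The last base of that ACA lies 3 bases from the end of the Scarna13 model. The row for Mir3069 held 0 counts in all 15 libraries, so overlapping reads were not assigned to the miRNA.

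In the IgG libraries Scarna13 had 86.5, 30.3, 49.8 and 53.8 CPM. In the Arid5a libraries it had 248, 392, 201 and 247 CPM. Every Arid5a library lay above every IgG library, with Arid5a replicate 2 the highest and IgG replicate 1 the highest of its group. The means were 272 ± 83.1 CPM (SD, n = 4) and 55.1 ± 23.3 CPM (SD, n = 4), a ratio of 4.93. The fitted log2 fold was 2.24 ± 0.42 (SE), with an adjusted p of 0.0459.

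The size of the Scarna13 difference held better than its call. Without each of the 8 libraries in turn the fold stayed between 2.03 and 2.55, but the adjusted p ranged from 0.015 to 0.192 and passed in 1 of the 8 fits. In the fit of the 8 medium libraries alone the log2 fold was 2.28 ± 0.25 (SE) with an adjusted p of 0.00043. On log2(FPKM + 1) with limma the adjusted p was 0.0364. The call was lost with upper-quartile factors, library totals, well-expressed factors and the replicate block, at adjusted p of 0.107, 0.112, 0.136 and 0.0796. It was kept with DESeq2 and voom, at adjusted p of 6.9e-05 and 6.2e-05. The deposited expected counts behind these values were 392, 27, 138 and 168 with IgG and 761, 949, 666 and 953 with Arid5a. Snhg10, whose model contains the Scarna13 gene, held at most 11 counts in any medium library and was not tested.

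The IL-17 libraries, which share no library with the medium comparison, gave Scarna13 71.3, 80.9 and 89.5 CPM with IgG. With Arid5a they gave 226, 163, 224 and 578 CPM. These groups did not overlap either. Their log2 fold was 1.89 ± 0.45 (SE) with an adjusted p of 0.269 in edgeR and of 0.0139 on log2(FPKM + 1).

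Snora43, an H/ACA small nucleolar RNA encoded at chr2:26637847-26637985 inside Snhg7, was the other guide RNA called higher. It had 0.883, 0, 1.81 and 3.20 CPM with IgG and 16.0, 14.5, 4.22 and 15.5 CPM with Arid5a. Replicates 1, 2 and 4 of the Arid5a RIP stood close together and replicate 3 was low, yet still above every IgG library. Fitted over all 4, the log2 fold was 2.90 ± 0.71 (SE), with an adjusted p of 0.047. Its counts were 4, 0, 5 and 10 against 49, 35, 14 and 60, and its effective length was 4.11 bases. The Snora43 call was lost with upper-quartile factors, library totals, well-expressed factors and the replicate block, at adjusted p of 0.103, 0.101, 0.121 and 0.0745. With voom, the medium libraries alone and log2(FPKM + 1) the adjusted p was 0.114, 0.160 and 0.260. Without single libraries the fold stayed between 2.63 and 3.51, and 1 of the 8 fits passed. Snhg7 held at most 6 counts in any medium library. With IL-17 the log2 fold of Snora43 was 2.20 ± 0.84 (SE), with an adjusted p of 0.431.

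Scarna6, another small Cajal body RNA, missed the threshold. It had 18.1, 0, 15.2 and 10.9 CPM with IgG and 49.2, 40.5, 21.4 and 42.5 CPM with Arid5a. The groups did not overlap, the log2 fold was 1.63 ± 0.41 (SE) and the adjusted p was 0.0614. With IL-17 its log2 fold was 0.53.

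The guide RNAs lay on both sides of 0. Of 119 small nucleolar and small Cajal body RNAs in the table, 85 had fewer than 10 counts in every medium library and 25 were tested. Of those 25, 2 were called higher and 0 lower, against 0.0561% and 0.572% of all transcripts tested, while 4 were above 0 and 10 below 0 at an unadjusted p below 0.05, against 4.5% and 8.28%. DESeq2 called 1 higher and 1 lower, and voom 1 and 2. The fold was above 0 for 7 and below 0 for 18, and the median log2 fold was -0.51 (-0.34 with factors from well-expressed genes).

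The negative side of the class held both C/D and H/ACA small nucleolar RNAs. Many C/D RNAs guide ribose methylation of ribosomal RNA. Snord1b had 20.1, 38.2, 51.6 and 16.0 CPM with IgG and 11.7, 8.67, 14.2 and 14.0 CPM with Arid5a, a log2 fold of -1.34 ± 0.40 (SE) with an adjusted p of 0.113. With IL-17 the log2 fold of Snord1b was -2.13 ± 0.44 (SE), with an adjusted p of 0.0491 in edgeR. In edgeR it was the only 1 of the 25 guide RNAs called with IL-17, beside 0.0112% of all transcripts called lower there. Of the 25 with IL-17, DESeq2 called 1 higher and 1 lower, voom 1 and 5, and limma on log2(FPKM + 1) 1 and 2. Snord22 had 551, 1308, 1380 and 530 CPM with IgG and 426, 420, 252 and 425 CPM with Arid5a, a log2 fold of -1.30 ± 0.42 (SE) with an adjusted p of 0.224. In both, every Arid5a library lay below every IgG library, and IgG replicates 2 and 3 stood well above replicates 1 and 4. Snora24, an H/ACA RNA, had the same division within IgG, at 40.0, 432, 425 and 67.9 CPM, against 28.9 to 69.0 CPM with Arid5a. Rmrp, the RNA of the mitochondrial RNA processing ribonuclease, had a log2 fold of -0.82 ± 0.28 (SE).

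The sign of the fold was the same in medium and with IL-17 for 21 of the 25 guide RNAs, and for 6804 of the 17835 transcripts tested (38.1%). Short RNAs of this kind are counted poorly by fragment-based libraries. For 19 of the 21 whose effective length could be derived from the deposited counts and FPKM it was below 50 bases, and for Scarna13 it was 82.1 bases.

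**Figure D2:**
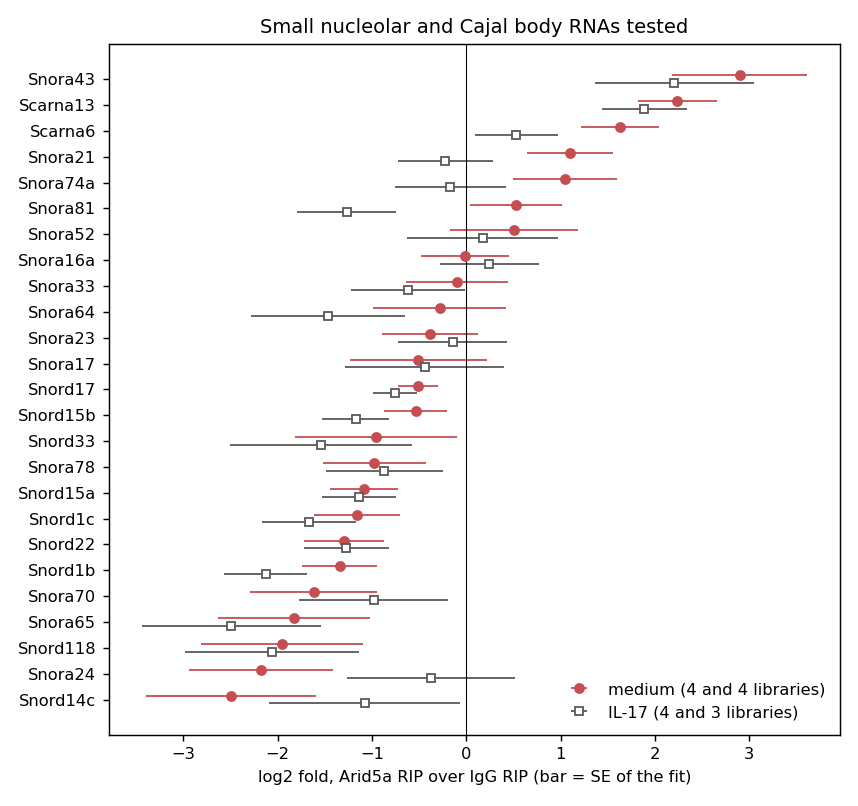
Log2 fold of the Arid5a RIP over the IgG RIP for the 25 small nucleolar and Cajal body RNAs tested, in medium (red points) and with IL-17 (open squares); bars are the SE of the fit. Snora43 and Scarna13 were the transcripts called higher in medium, and 18 of the 25 medium folds lie below 0.

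Nsa2 encodes a nucleolar factor needed to assemble the large ribosomal subunit (chr13:97129427-97137926, overlapping Fam169a). It had 193, 238, 261 and 185 CPM with IgG and 384, 313, 310 and 425 CPM with Arid5a. All 4 Arid5a libraries were higher than all 4 IgG libraries. This gave a log2 fold of 0.71 ± 0.16 (SE), a ratio of means of 1.63, with an adjusted p of 0.0279. With IL-17 the log2 fold was 1.06 with an adjusted p of 0.00697, and Nsa2 was the only one of the 10 higher calls that was also called with IL-17. Leaving out single medium libraries gave folds of 0.62 to 0.81, and 1 of the 8 fits passed the threshold.

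H4c4, a replication-dependent histone H4 gene at chr13:23581568-23581969, had 148, 115, 99.7 and 145 CPM with IgG and 192, 251, 149 and 217 CPM with Arid5a. The lowest Arid5a library stood just above the highest IgG library. A log2 fold of 0.66 ± 0.16 (SE) had an adjusted p of 0.0464, and with IL-17 the fold was 0.57. Histone H4 genes code for the same protein and have similar coding sequences, so reads may be split among them. Of 60 replication-dependent histone genes tested, H4c4 was the only one called in edgeR, and their median log2 fold was 0.05, against 0.04 over all genes tested. At an unadjusted p below 0.05 in edgeR, 9 of the 60 were higher and 6 lower, against 4.5% and 8.28% of all transcripts. DESeq2 called 4 higher and 1 lower, against 0.146% and 1.69% of all transcripts, and voom called 0 and 1. Ribosome biogenesis factors gave 1 higher call (Nsa2) and 1 lower (Npm1) among 59 tested, with a median of -0.20. Over all transcripts 0.0561% were called higher and 0.572% lower.

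Gm15506 is an unnamed long noncoding RNA gene at chr7:98682336-98702928. It had 12.8, 3.37, 12.6 and 11.8 CPM with IgG and 30.3, 33.0, 33.1 and 23.8 CPM with Arid5a. The low IgG value came from the shallowest library, and the other 3 were alike. Its log2 fold was 1.46 ± 0.32 (SE) with an adjusted p of 0.0273, and with IL-17 it was -0.27. Gm44505, a noncoding model on chromosome 19 that overlaps Cntf, Zfp91 and Lpxn, had 62.7, 21.3, 34.7 and 47.7 CPM with IgG and 101, 66.5, 72.9 and 77.7 CPM with Arid5a, a log2 fold of 0.87 ± 0.21 (SE) with an adjusted p of 0.0464. Its highest IgG library almost reached its lowest Arid5a library, and reads of overlapping genes may be shared with it.

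Kcnj3 encodes a subunit of G-protein-gated potassium channels, best known in heart and neurons (chr2:55411798-55598145). It had 3.97, 1.12, 2.53 and 2.56 CPM with IgG and 14.0, 11.6, 16.3 and 11.4 CPM with Arid5a. The groups were well apart and the Arid5a libraries close together. Kcnj3 had a log2 fold of 2.24 ± 0.56 (SE), with an adjusted p of 0.047, and of -0.34 with IL-17. Among 20 neuronal markers Kcnj3 was the only one called, beside 0.0561% of all transcripts called higher. The median log2 fold of the 20 was 0.28. The summed neuronal markers ranged from 146 to 232 CPM with IgG and from 180 to 241 CPM with Arid5a, and their part in the result was not tested.

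The 3 remaining higher calls rested on few counts. The noncoding 4930455J16Rik had no counts in the 4 IgG libraries and 3, 15, 6 and 10 counts with Arid5a, so its mean was at least 1.90-fold higher, with the floor set at 3 counts in each IgG library. Olfr9, an olfactory receptor gene, had 0, 0, 0.361 and 0 CPM with IgG and 1.95, 5.37, 8.13 and 3.11 CPM with Arid5a. Gm38666, a model that spans the protocadherin alpha genes, had 0, 0, 2.53 and 0 CPM with IgG and 3.58, 19.8, 7.23 and 8.29 CPM with Arid5a. In IL-17 libraries the first was at 13, 17 and 14 counts with IgG, and Olfr9 and Gm38666 had negative folds. For 4930455J16Rik and Olfr9 the difference between the treatments passed the interaction test, with adjusted p of 0.0239 and 0.0348.

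**Figure D3:**
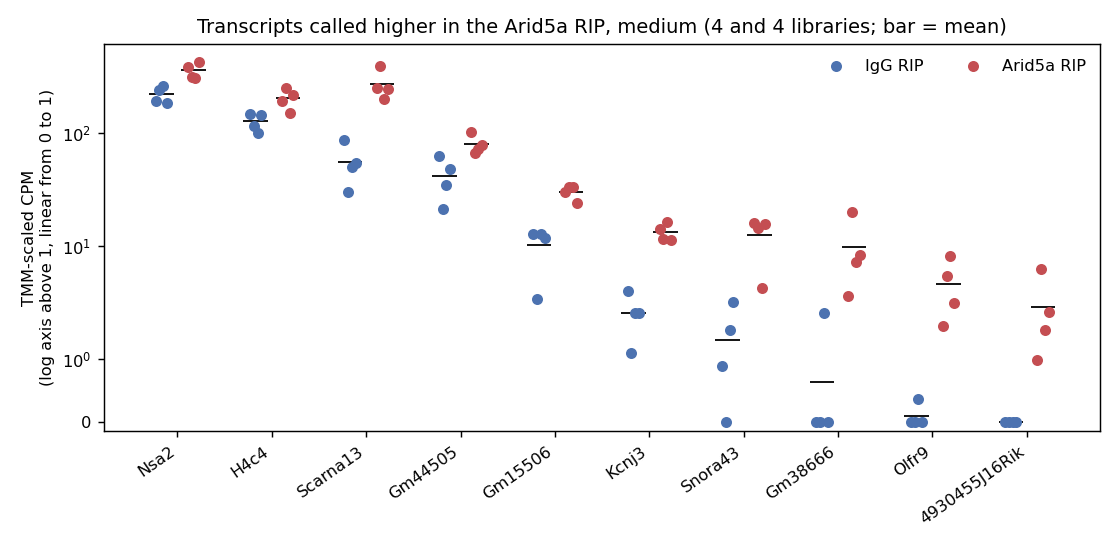
TMM-scaled CPM of the 10 transcripts called higher, one point per medium library, with the mean as a bar. The axis is logarithmic above 1 and linear from 0 to 1. No Arid5a library of any of the 10 lies at or below an IgG library.

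All 10 higher calls had groups that did not overlap. Across all tested transcripts, every Arid5a library lay above every IgG library in 892 (5%), and below every IgG library in 722 (4.05%). Among transcripts not called, the smallest p-values on the higher side by the naming rule belonged to Vmn2r109, Scarna6, the mucin gene Muc5b, Olfr1509, Phf24, Acp6 and H2afy3, with adjusted p from 0.0566 to 0.0887. Muc5b, a secreted mucin of airway epithelium, had 12.4, 6.74, 14.4 and 16.7 CPM with IgG and 25.4, 39.2, 34.0 and 32.1 CPM with Arid5a. Its adjusted p was 0.0624, and with IL-17 its log2 fold was -0.24.

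Olfactory and vomeronasal receptor genes, the chemosensory receptors of the nose, took up more of the Arid5a libraries in medium. They number 1470 in the table. Their summed level was 2134, 1987, 1961 and 3035 CPM with IgG and 3201, 4024, 4697 and 3253 CPM with Arid5a. The highest IgG library, replicate 4, came close to the lowest Arid5a library, but the groups did not overlap. The means were 2279 ± 510 CPM and 3794 ± 711 CPM (SD, n = 4 each), a difference of 1514 CPM. A two-sided exact permutation test gave p = 0.0286, the smallest p that 4 against 4 libraries allow. The list was chosen with earlier results of these data known, so this p is a description. All genes with average log2 CPM below 3 took 2.10 to 3.08% of counts with IgG and 3.32 to 4.23% with Arid5a, also without overlap. Whether the receptor genes differed beyond that wider shift was not tested. With IL-17 the order was not the same. The sums there were 3313, 3213 and 2325 CPM in IgG replicates 2 to 4 and 1656, 1785, 1389 and 4008 CPM with Arid5a. Arid5a replicates 1 to 3 lay below every IgG library there, and replicate 4 above them.

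Of the 1470 receptor genes 683 passed the filter on low counts, and Olfr9 was the only one called. Counting Olfr9, 85 were above 0 and 2 below 0 at an unadjusted p below 0.05, against 4.5% and 8.28% of all transcripts. The filter let a gene pass through the antibody group in which it was high, so these counts describe only the genes that passed. Other lists of mostly low genes were described the same way, over the members that passed. Their median log2 fold was 0.50 for 78 potassium channel genes, 0.52 for 56 clustered protocadherins, 0.23 for 45 keratins, 0.50 for 689 models with Gm symbols and 0.44 for 841 with Rik symbols. It was 0.17 for 9 haematopoietic markers and 0.12 for 19 epithelial and endothelial markers. All genes of the lowest and the next level class (of 4 by average level) had medians of 0.56 and 0.30. By median average log2 CPM, potassium channel genes (3.10), clustered protocadherins (3.08) and epithelial and endothelial markers (2.40) belonged to the next class. The first 2 had median folds above that class and the markers below it. The other lists belonged to the lowest class and had medians below it. The 683 receptor genes, also of the lowest class by median level, had a median of 0.73.

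Fold and level were tied across genes. With genes divided by average level into 4 classes of equal size, from lowest to highest, the median log2 fold was 0.56, 0.30, -0.03 and -0.20, and 75.9%, 70.4%, 46.6% and 20.2% of genes were above 0. With IL-17 the same classes had medians of -0.45, -0.26, 0.04 and 0.16, which is the opposite order. Genes are not independent replicates, so these values describe the libraries. Well-expressed genes took 88.0%, 89.2%, 89.1% and 87.0% of counts with IgG and 86.5%, 84.5%, 84.4% and 86.4% with Arid5a, with no overlap. Of the 10 higher calls 6 were below that level, namely Kcnj3, Snora43, Gm38666, Olfr9, 4930455J16Rik and Gm15506, and the part of this shift in their calls was not tested.

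**Figure D4:**
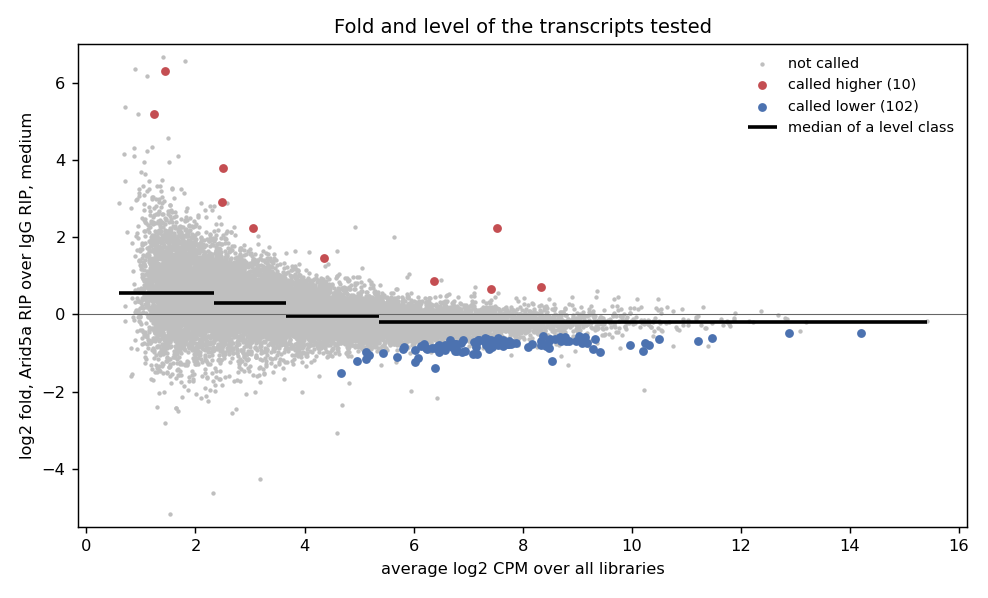
Log2 fold of the Arid5a RIP over the IgG RIP in medium against average log2 CPM over all libraries, for 17835 transcripts. Black bars are medians of the 4 level classes, falling from 0.56 to -0.20; the 102 lower calls (blue) lie at the abundant end.

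The 102 lower calls were abundant protein-coding transcripts. Of them 100 were protein coding and 100 well expressed, which is 1.85% of the well-expressed genes. By level class, 97 lay in the highest and 5 in the next, which is 2.18% and 0.112% of those classes, and the other classes held 0 (0%). Their median log2 fold was -0.78, with a range of -1.52 to -0.47, beside a median of -0.19 for all well-expressed genes. The groups did not overlap for 61 of the 102 (59.8%). Their median effective length was 2351 bases against 3236 bases for well-expressed genes. With well-expressed genes divided into 4 classes of equal size by effective length, from shortest to longest, 41, 32, 19 and 8 were called lower, and the median log2 fold was -0.25, -0.22, -0.18 and -0.12.

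The IgG libraries did not contribute alike. IgG replicate 1 was the lowest IgG library for 86 of the 102, IgG replicate 2 was the highest for 59 and IgG replicate 3 for 36. The median log2 ratio of an IgG library to the Arid5a mean over the 102 was 0.30, 1.06, 0.92 and 0.63 for IgG replicates 1 to 4. IgG replicate 1 was above every Arid5a library for 63 of the 102, and the other 3 for 102, 102 and 99. So the IgG library with the most counts was the nearest to the Arid5a libraries, and the one with the fewest was the farthest. The part of depth in these calls was not tested.

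Cdk7, the kinase of the general transcription factor TFIIH and of the CDK-activating complex (chr13:100697024-100730942, overlapping Ccdc125), had 58.7, 76.4, 77.3 and 95.8 CPM with IgG and 34.5, 31.0, 34.3 and 43.2 CPM with Arid5a. No library of one antibody entered the range of the other. Cdk7 had a log2 fold of -1.10 ± 0.20 (SE), with an adjusted p of 0.0148. It was -0.92 with an adjusted p of 0.0493 under well-expressed factors, and it was called in 5 of the 8 fits that left out a library, with adjusted p up to 0.117. Of 10 TFIIH subunits tested Cdk7 was the only one called, and the median was -0.37 (-0.19 with well-expressed factors). For comparison, 0.572% of all transcripts and 1.85% of well-expressed genes were called lower.

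Tacc3 encodes a spindle protein that stabilises microtubules in mitosis (chr5:33658128-33672203). It had 133, 304, 236 and 204 CPM with IgG and 124, 97.5, 90.0 and 117 CPM with Arid5a. IgG replicate 1 was near the Arid5a range and the other IgG libraries were well above it. Its log2 fold was -1.02 ± 0.18 (SE) with an adjusted p of 0.0148.

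Plk4, the kinase that starts centriole duplication, had 99.8, 129, 229 and 212 CPM with IgG and 81.0 to 93.8 CPM with Arid5a, a log2 fold of -0.97 ± 0.19 (SE). Among 43 cell cycle genes, a list without Plk4, 3 were called lower, Tacc3, Rrm2 and Birc5, and none higher. Lower calls made up 0.572% of all transcripts and 1.85% of well-expressed genes. Of the 43, 39 were below 0, with a median of -0.25 (-0.08 with well-expressed factors). In the highest level class, where the list's median level lay, 20.2% of genes were above 0. Rrm2, a ribonucleotide reductase subunit, had a log2 fold of -0.74, and Birc5, the survivin gene, one of -0.66, with Arid5a and IgG ranges that overlapped.

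Esd encodes S-formylglutathione hydrolase (chr14:74732151-74750765). It had 614, 822, 765 and 576 CPM with IgG and 477, 402, 379 and 426 CPM with Arid5a. The ranges did not meet. Esd had a log2 fold of -0.72 ± 0.13 (SE) with an adjusted p of 0.0148, and -0.53 with an adjusted p of 0.0493 under well-expressed factors.

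Eif2s2, the beta subunit of the initiation factor that brings the initiator tRNA to the ribosome, had 560, 1225, 1069 and 703 CPM with IgG and 458 to 502 CPM with Arid5a. The spread among IgG libraries was much wider than among Arid5a libraries. Its log2 fold was -0.90 ± 0.17 (SE), with an adjusted p of 0.0171. Of 37 subunits of the proteasome, the protease of ubiquitin-tagged proteins, 3 were lower: Psma1 (-1.0), Psmd6 (-0.84) and Psmd1 (-0.63) on the log2 scale, with a list median of -0.24 (-0.06 with well-expressed factors). Of 78 mitochondrial ribosomal protein genes, Mrps21 (-0.87) and Mrps14 (-0.74) were lower and 66 were below 0, with a median of -0.27 (-0.08 with well-expressed factors). Beside these counts, 0.572% of all transcripts and 1.85% of well-expressed genes were lower. Cytosolic ribosomal protein genes had 0 calls among 78 in edgeR (20 with p below 0.05 before adjustment) and 4 higher and 2 lower in DESeq2; they had a median of -0.06 that became 0.13 with well-expressed factors.

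The largest lower folds of the naming rule were those of Churc1, at -1.52 ± 0.34 (SE), and Pdrg1, at -1.38 ± 0.26 (SE). Churc1 had 25.6, 93.2, 45.1 and 34.6 CPM with IgG and 19.5, 17.8, 17.8 and 11.4 CPM with Arid5a. Pdrg1, a small prefoldin-related protein gene, had 66.0, 219, 154 and 94.5 CPM with IgG and 48.5, 49.6, 42.8 and 58.5 CPM with Arid5a. In both genes IgG replicate 2 was highest and the Arid5a libraries lay close together. Fstl3, a secreted inhibitor of activin, had 32.0, 71.9, 31.8 and 33.0 CPM with IgG and 14.2 to 19.4 CPM with Arid5a. Its log2 fold was -1.21 ± 0.28 (SE). It was the only gene called among 30 of the activin and TGF-beta pathway, beside 0.572% of all transcripts called lower. The other genes of this rule were Mfsd14a, AI597479, Ndufa3 of respiratory complex I, Sat1, which acetylates polyamines, the immunophilin gene Fkbp8 and Pcnp, with log2 folds between -1.16 and -0.90.

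**Figure D5:**
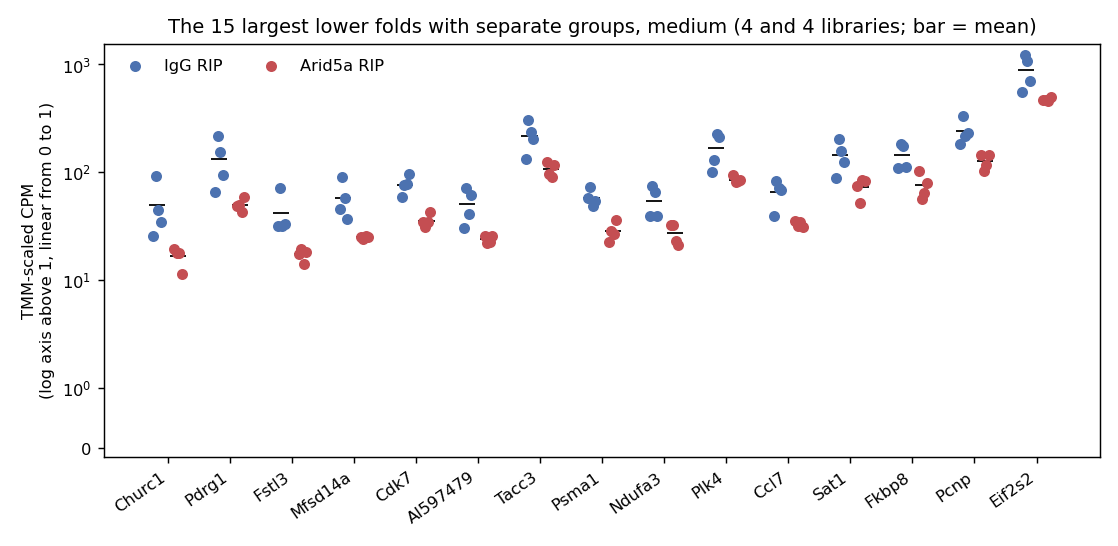
TMM-scaled CPM of the 15 genes with the largest lower folds by the naming rule, one point per medium library, with the mean as a bar, on an axis that is logarithmic above 1. The lowest IgG library lies close to the highest Arid5a library for several genes, among them Fkbp8, Plk4, Sat1, Tacc3, Ccl7, Eif2s2 and Pdrg1.

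Ccl7, a chemokine that attracts monocytes (chr11:82045712-82047525), had 39.1, 83.1, 71.9 and 68.2 CPM with IgG and 35.2, 31.8, 34.9 and 31.1 CPM with Arid5a. The lowest IgG library lay just above the Arid5a libraries and the other 3 well above them. Its log2 fold was -0.94 ± 0.19 (SE), with an adjusted p of 0.0171. Ccl9, another chemokine gene, had a log2 fold of -0.67. These 2 were the only calls among 18 chemokine and cytokine genes tested, beside 0.572% of all transcripts and 1.85% of well-expressed genes called lower, and the list's median was -0.13 (0.05 with well-expressed factors). Of 15 genes known to be induced by IL-17, Ccl7 was the only one called and 13 were below 0. Their median level lay in the highest level class, where 20.2% of genes were above 0.

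Regulators of messenger RNA stability gave 2 lower calls among 56, Zfp36l2 (-0.60), which promotes decay of AU-rich transcripts, and Celf1 (-0.62), which binds GU-rich ones. The list median was -0.12, and 0.06 with well-expressed factors. Lower calls were 0.572% of all transcripts and 1.85% of well-expressed genes. Zc3h12a encodes Regnase-1, the endonuclease known to act against Arid5a on Il6 mRNA. It had 16.3, 21.3, 13.7 and 11.8 CPM with IgG and 7.82, 10.3, 9.33 and 6.47 CPM with Arid5a, a log2 fold of -0.86 ± 0.28 (SE). The groups did not overlap, but the adjusted p was 0.155 and the gene was not called.

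None of the transcripts reported elsewhere as Arid5a targets was called higher. Of 8 such genes 6 were tested and 0 were called in either direction. In edgeR 0 were above 0 and 1 was below 0 at an unadjusted p below 0.05, against 4.5% and 8.28% of all transcripts. The fold was above 0 for 1 of the 6, Tbx21, and below 0 for 5, with a median log2 fold of -0.19. DESeq2 and voom also called 0 of the 6. At an unadjusted p below 0.05 DESeq2 had 1 higher and 1 lower. Il6 had 0 to 6 counts per medium library and was not tested, nor was Tnfrsf4, the gene of the OX40 receptor, with 0 to 9. Stat3 had 58.9, 42.7, 52.0 and 49.0 CPM with IgG and 43.3, 38.8, 43.4 and 49.2 CPM with Arid5a, a log2 fold of -0.23 ± 0.20 (SE). Nfkbiz, which encodes the NF-kappaB cofactor IkappaB-zeta, had 28.0 to 39.3 CPM and 21.1 to 36.8 CPM. In both genes the ranges overlapped. Cxcl1 and Cxcl5 were also among the 6. Cxcl1 had 6.50 to 12.6 CPM with IgG and 2.61 to 8.73 CPM with Arid5a, a log2 fold of -0.55 ± 0.32 (SE). Cxcl5 had 10, 1, 2 and 1 counts with IgG and 3, 3, 4 and 4 with Arid5a. Its log2 fold of -0.12 ± 0.59 (SE) rested on these few counts.

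Cebpb, a transcription factor of the IL-17 response, had 58.7, 46.0, 92.8 and 70.8 CPM with IgG and 46.6, 43.8, 43.4 and 47.6 CPM with Arid5a, a log2 fold of -0.59 ± 0.20 (SE) with an adjusted p of 0.188. Tbx21, the T-bet gene, was at low level and leaned the other way, at 5.30, 0, 3.61 and 4.16 CPM against 7.82, 7.43, 9.64 and 8.03 CPM. Its groups did not overlap, and its log2 fold of 1.17 ± 0.58 (SE) had an adjusted p of 0.395. The mRNA of Arid5a itself had 20.5, 11.2, 21.3 and 9.61 CPM with IgG and 12.4, 21.5, 13.9 and 14.0 CPM with Arid5a, with a log2 fold of -0.07 ± 0.37 (SE). That value is of the messenger RNA and does not measure how much protein the antibody recovered.

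Nuclear long noncoding RNAs were split. Malat1 had 20218, 17249, 16669 and 22101 CPM with IgG and 14250, 10877, 13766 and 16145 CPM with Arid5a. Its ranges did not overlap, though they nearly met. A log2 fold of -0.47 ± 0.12 (SE) had an adjusted p of 0.047, and Malat1 passed in 0 of the 8 fits that left out a library. Neat1, the scaffold of paraspeckles, had 1777 to 2007 CPM with IgG and 1312 to 1537 CPM with Arid5a, an adjusted p of 0.115 and a log2 fold of -0.42. Meg3 had 15.7 to 39.4 CPM and 43.3 to 64.1 CPM, with a log2 fold of 0.69 and an adjusted p of 0.273.

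Among common reference genes, Ppia, the cyclophilin A gene, fell by 0.62 and Ywhaz, a 14-3-3 gene, fell by 0.74 on the log2 scale (adjusted p of 0.0273 and 0.0171). With well-expressed factors neither was called, at adjusted p of 0.136 and 0.0588. Gapdh had a log2 fold of 0.23 and Actb of -0.13, with neither called. Of 26 housekeeping genes 2 were lower and none higher, beside the 1.85% of well-expressed genes called lower, and their median was -0.20 (-0.01 with well-expressed factors). Col1a1, the main collagen of these cells, had 8026, 9465, 9846 and 8672 CPM with IgG and 7447, 6253, 5495 and 6655 CPM with Arid5a, a log2 fold of -0.48 ± 0.12 (SE) with an adjusted p of 0.0472. It was the only call among 36 extracellular matrix genes and among 19 stromal markers tested.

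Set beside the IL-17 libraries, the lower calls did not recur. Of the 102, 0 were called in either direction with IL-17 in edgeR, 84 had a log2 fold above 0 and 18 below 0, and the median was 0.26. At an unadjusted p below 0.05, 28 of them were higher with IL-17 and 0 lower, against 4.74% and 4.21% of all transcripts; DESeq2 called 0 and voom called 12 higher. Over all tested genes 49.2% were above 0 with IL-17 and 50.8% below, and 0.0561% were called higher and 0.0112% lower. Well-expressed genes, to which 100 of the 102 belong, had a median log2 fold of 0.15 with IL-17, against -0.01 over all tested genes. The difference between the treatments passed the interaction test for 59 of the 102 lower and 2 of the 10 higher calls, 61 of 112 in all, against 0.976% of all transcripts. These transcripts were picked on the medium libraries that also enter the interaction, so the share is a description. With upper-quartile factors, library totals, well-expressed factors or log2(FPKM + 1), 0 of the 112 passed. Without IgG replicate 3 the count was 7, and without Arid5a replicates 2 and 3 it was 13 and 3.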

How the data were processed

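The authors deposited expected counts of 25239 genes in 15 libraries, and the FPKM values that go with them. The submitters' processing notes name STAR 2.7.9, RSEM 1.3.1, DESeq2 1.36.0, R 4.3.0 and mm10. Which annotation and strand option were used is not given in the sources used here. Expected counts were rounded to whole numbers. Genes were filtered by group and scaled by TMM in edgeR 4.0.16 (R 4.3.3), and 4 group means over all 15 libraries were fitted with the robust quasi-likelihood test; 17835 genes were tested at an adjusted p threshold of 0.05. Folds are Arid5a over IgG in medium. Alternatives used upper-quartile factors, library totals, factors from well-expressed genes, DESeq2 1.42.0, limma 3.58.1 (voom, and log2 of FPKM plus 1 or 0.1), other filters, medium libraries alone, the replicate block and each library left out. On simulated counts for this comparison (16937 genes tested) 33 of 95 genes changed 2-fold and 62 of 97 changed 4-fold were called, with 3 of 16745 unchanged ones.

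Coordinates and names are from RefSeq on GRCm38.p6, where 25041 symbols matched. Named were all higher calls; the 15 lowest folds among lower calls whose groups were separate, whose average log2 CPM reached 2 and whose symbols were not of the Gm or Rik kind; up to 3 called members of each of 30 lists; calls shared by 5 scalings; the 8 higher transcripts with the smallest p among those not called, with the same limits, of which 1 is not reported here; and a set of known genes. The libraries, lists and alternatives were chosen with earlier results of these data known. Columns of other samples in the tables numbered 0.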

Additional observations from a re-analysis of the deposited data

Results flagged for a closer look

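Among 139 groups of 4 libraries checked (a named transcript or a library measure under 1 antibody in medium), 10 had a library far from the other 3 by Dixon's test, which chance gives in about 1 in 20 groups. In IgG replicate 2, the shallowest library, Gm15506 stood low at 3.37 CPM and Fstl3 high at 71.9 CPM, and genes with at least 1 count numbered 15326. In IgG replicate 3, Gm38666 was at 2.53 CPM and Olfr9 at 0.361 CPM while the other IgG libraries were at 0. In IgG replicate 4, Il6 was at 1.92 CPM and the receptor genes summed to 3035 CPM, each above the others. In the Arid5a RIP, Snora43 was low in replicate 3 at 4.22 CPM, Mfsd14a low in replicate 2 at 24.0 CPM, though the 4 values are close, and Lcn2 was at 1.81 CPM in replicate 4 and 0 elsewhere.

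For 24 named transcripts the Arid5a against IgG fold differed between IL-17 and medium by edgeR's interaction test at an adjusted p below 0.05. The differences, IL-17 minus medium on the log2 scale, were below 0 for transcripts whose medium fold was above 0. They were -8.02 for 4930455J16Rik and -6.83 for Olfr9, both resting on few counts, -4.52 for Vmn2r109 and -1.60 for Meg3. Above 0 were genes whose medium fold was negative. The chemokine genes Ccl7 and Ccl9 had 1.53 and 1.11. Genes of cell division had 1.04 (Tacc3), 1.38 (Plk4) and 1.15 (Birc5), and Cdk7 had 1.20. The proteasome genes Psmd6 and Psmd1 had 1.19 and 0.93. Pdrg1 had 1.67, Mfsd14a 1.64, Sat1 1.33, Pcnp 1.01, Eif2s2 1.01, Npm1 0.98 and Esd 0.99. The RNAs Malat1 and Neat1 had 0.86 and 0.77, the decay factor gene Zfp36l2 had 0.90, and the reference genes Ywhaz and Ppia had 1.11 and 1.06. Of the 112 medium calls, 0 passed this test with upper-quartile, library-total or well-expressed factors.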

How the results depend on the processing

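The counts of calls moved under most alternatives, but no named transcript called in medium changed direction under any alternative run. Higher calls were 2 with upper-quartile factors, 26 with DESeq2, 6 with voom, 1 with the medium libraries alone and with log2(FPKM + 1), and 0 with log2(FPKM + 0.1), where 2731 transcripts had an unadjusted p below 0.05. Lower calls were 2 with upper-quartile factors, 5 with library totals, 4 with well-expressed factors, 301 with DESeq2, 67 with a filter of 10 counts in each library of 1 group or more, and 0 with the medium libraries alone and with either FPKM pseudocount (1821 and 3105 transcripts at an unadjusted p below 0.05 for the first and for a pseudocount of 1). Leaving out single libraries gave 0 to 37 higher and 0 to 313 lower calls, and 3 to 83 of the medium calls whose effect differed with IL-17. That count was 0 with upper-quartile, library-total and well-expressed factors and with log2(FPKM + 1), 1 with log2(FPKM + 0.1) and 93 with voom, against 61. The receptor difference was 1213 to 1766 CPM without single libraries and 1974 CPM with library totals; with 3 libraries in a group its smallest possible exact permutation p is 0.0571.

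Same-numbered libraries did not deviate together: the correlations of deviations from the group means were -0.03, -0.01, -0.03 and -0.06, and none was best with its own number. With the replicate block the calls were 5 higher and 44 lower, and 41 calls differed with IL-17. With the block in the medium libraries alone, an alternative chosen after seeing the data, they were 1 and 0 (1407 transcripts at an unadjusted p below 0.05). The shallowest library held 939139 counts, at which the low transcripts named above rest on few counts.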

Other observations

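Some abundant transcripts were higher only under scalings that set well-expressed genes level. These were chosen after their values were seen. Ybx1, which encodes the RNA-binding protein YB-1, had 1155, 1169, 1017 and 1016 CPM with IgG and 1453, 1388, 1314 and 1551 CPM with Arid5a, on the TMM scale. Its groups did not overlap. The log2 fold was 0.39 with TMM (adjusted p = 0.156), and 0.57 with well-expressed factors (adjusted p = 0.0493) and with library totals (adjusted p = 0.0417), all in edgeR. With IL-17 the TMM value was 0.57. The ribosomal protein genes Rpl12 and Rpl17, and Sh3pxd2a, which encodes the podosome scaffold Tks5, had log2 folds of 0.58, 0.57 and 0.64 with well-expressed factors, each with an adjusted p of 0.0493. Anapc5, a subunit of the anaphase-promoting complex, had 0.60 with an adjusted p of 0.0538, and of 0.0428 with library totals.

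By annotated class, the median log2 fold in medium was 0.02 for 16354 protein-coding genes, 0.53 for 1112 long noncoding RNAs and 0.41 for 214 transcribed pseudogenes, and the median levels (average log2 CPM) were 3.89, 2.12 and 2.27. Of the 15 genes of the AT-rich interaction domain family tested, 12 had a fold below 0 and 0 were called in edgeR, where 2 had p below 0.05 before adjustment, beside 12.8% of all transcripts; 1 was lower in DESeq2.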
